A study of Mus musculus with 83 samples.

Results

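Tuft cell genes were examined in RNA-seq counts from the aging mouse colon. The 10 genes were chosen by name as genes used to recognise tuft cells, with earlier results of these data known, and they are 10 of the 37764 genes in the count table. They were Trpm5, Dclk1, Avil, Pou2f3, Gfi1b, Il25, Alox5, Alox5ap, Ptgs1 and Hpgds, all protein-coding and each found by its Ensembl identifier. The counts came from the colon of 83 male C57BL/6J/Ukj mice, for which the labels name no transgene or treatment. Groups of 16 mice were 3, 9 and 15 months old, 17 mice were 24 and 18 mice were 28 months old. Each library was made from polyA RNA of a separate mouse, from the proximal part of the colon per the methods of the study. The 3 library preparation batches each contained 4 to 7 mice of every age. Female mice were not studied.

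Tuft cells are rare chemosensory cells of the intestinal epithelium. They carry a taste-type signalling chain that ends in the channel TRPM5, depend on the transcription factor POU2F3, and are the main epithelial source of interleukin 25, which activates group 2 innate lymphoid cells in a type 2 immune response. They also make leukotrienes and prostaglandins from arachidonic acid through enzymes that mast cells, macrophages and other cells express too.

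The number of read pairs on genes lay between 23026370 and 75838290 in a mouse (median 35495123), and levels are given as CPM, the counts scaled to a common, normalized library size. Markers of the labelled tissue were present at every age. The summed level of 6 epithelial genes (Epcam, Cdh1, Krt8, Krt19, Cldn7 and Vil1) was between 6537 and 13069 CPM, and that of 5 genes of the absorptive colonocyte (Car1, Slc26a3, Aqp8, Krt20 and Car4) between 5890 and 13503 CPM. Smooth muscle genes summed to 736 to 4440 CPM at 3 months and 1079 to 4625 CPM at 9 months. The samples thus contained muscle as well as mucosa, at a level that varied between mice. One library stood apart, that of 15 months replicate 16, which was the lowest of the 16 mice of its age in the epithelial (6537 CPM), goblet cell (18679 CPM), stem cell (59.8 CPM) and smooth muscle (2818 CPM) lists, and it was singled out after its values were seen. The tests between 15 and 24 months are given with and without it. In such bulk tissue, fewer tuft cells and less RNA per tuft cell cannot be told apart.

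POU factors such as POU2F3 are known to bind the octamer sequence. Promoters from RefSeq (GRCm38.p6, 250 bases before to 50 bases after a gene start) were matched for 7 of the 10 genes, with 2 starts for Dclk1. Those of Trpm5, Alox5 and Avil are printed because these genes varied most closely together from mouse to mouse, and those of Ptgs1 and Hpgds because these genes moved the other way with age. Capitals mark the octamer ATGCAAAT, or 7 of its bases in a row (ATGCAAA or TGCAAAT), on either strand. The windows lie at chr7:143094593-143094892 on the minus strand for Trpm5, at chr6:116461129-116461428 on the minus strand for Alox5, at chr10:127000459-127000758 on the plus strand for Avil, at chr2:36230176-36230475 on the plus strand for Ptgs1 and at chr6:65144681-65144980 on the minus strand for Hpgds.
Trpm5: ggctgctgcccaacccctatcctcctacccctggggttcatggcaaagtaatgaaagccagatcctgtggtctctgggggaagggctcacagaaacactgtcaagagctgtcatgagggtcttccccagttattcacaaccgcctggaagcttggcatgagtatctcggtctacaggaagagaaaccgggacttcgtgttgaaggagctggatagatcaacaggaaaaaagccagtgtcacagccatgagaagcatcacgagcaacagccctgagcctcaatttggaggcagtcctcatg
Alox5: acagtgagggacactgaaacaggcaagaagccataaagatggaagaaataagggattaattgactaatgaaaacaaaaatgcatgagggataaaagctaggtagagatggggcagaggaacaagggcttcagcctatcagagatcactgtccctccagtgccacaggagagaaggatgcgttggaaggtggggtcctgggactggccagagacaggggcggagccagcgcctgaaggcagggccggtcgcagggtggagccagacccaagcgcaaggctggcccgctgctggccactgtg
Avil: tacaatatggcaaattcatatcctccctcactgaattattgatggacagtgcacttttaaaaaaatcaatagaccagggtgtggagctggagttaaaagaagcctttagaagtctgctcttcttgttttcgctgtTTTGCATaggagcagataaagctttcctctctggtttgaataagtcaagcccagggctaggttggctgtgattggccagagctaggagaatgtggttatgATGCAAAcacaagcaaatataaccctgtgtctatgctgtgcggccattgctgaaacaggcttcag
Ptgs1: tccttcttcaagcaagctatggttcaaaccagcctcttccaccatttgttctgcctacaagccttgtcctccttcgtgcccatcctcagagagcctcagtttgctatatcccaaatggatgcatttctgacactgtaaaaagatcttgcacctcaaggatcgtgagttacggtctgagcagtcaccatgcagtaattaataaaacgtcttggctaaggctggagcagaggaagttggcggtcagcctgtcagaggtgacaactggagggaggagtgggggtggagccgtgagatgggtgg
Hpgds: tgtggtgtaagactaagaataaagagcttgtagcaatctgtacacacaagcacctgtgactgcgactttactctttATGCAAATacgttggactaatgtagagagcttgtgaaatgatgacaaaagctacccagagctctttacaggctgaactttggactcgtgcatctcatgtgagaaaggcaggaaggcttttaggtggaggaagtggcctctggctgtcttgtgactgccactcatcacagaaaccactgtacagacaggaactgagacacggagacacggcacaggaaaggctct
Hpgds held the whole octamer at position -174 from its start, which 1.74% of the 32851 promoters in the RefSeq set also held. Avil held 7 of the 8 bases at positions -115 and -15, and 6.82% of all promoters held such a run or the octamer. These letters were not found in the windows of Trpm5, Alox5, Ptgs1, Gfi1b or either start of Dclk1. A match describes the letters only and is not evidence of binding.

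Most of the tuft cell genes were lower in the oldest mice, and none passed the test between neighbouring ages up to 15 months. Between 3 and 28 months, 6 of the 9 genes with enough counts for a test fell (Trpm5, Pou2f3, Gfi1b, Alox5, Dclk1 and Avil), against 25.9% of all 18325 genes tested. The prostaglandin enzymes Ptgs1 and Hpgds rose, against 23.5% of all genes, and Alox5ap did not pass the test. The steps that passed were late in life. Between 15 and 24 months Trpm5, Pou2f3 and Alox5 fell (7.24% of all genes fell) and Ptgs1 rose (6.28% rose), and between 24 and 28 months Trpm5, Pou2f3, Alox5, Dclk1 and Avil fell (6.01% fell) while no member rose (5.66% rose). Goblet cell markers were lower in the same late steps (2 of 5 between 15 and 24 months, 3 of 5 between 24 and 28 months), and with their level as a covariate, an alternative chosen after the data were seen, 0 members were lower in either step and 3, Trpm5, Pou2f3 and Dclk1, were lower between 3 and 28 months. In that fit 5.31% of all genes were lower between 15 and 24 months, 0.426% were called in either direction between 24 and 28 months and 18.1% were lower between 3 and 28 months. Between 3 and 9 months 0 of the 9 passed the test in edgeR and 0 in DESeq2, where edgeR called 8.69% of all genes, and 1 of the 9, Hpgds, had an unadjusted p below 0.05. Between 9 and 15 months 0 of the 9 passed in either tool, and 0 had an unadjusted p below 0.05, where edgeR called 0.431% of all genes.

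Over the 5 ages together, 8 of the 9 genes differed (edgeR quasi-likelihood F-test, adjusted p below 0.1), against 54.9% of all genes tested. The joint test of the curved terms of age, which asks whether a gene leaves a linear course, was passed by 5 of the 9, Trpm5 (adjusted p = 5.43e-05), Alox5 (0.000926), Pou2f3 (0.00162), Avil (0.00245) and Dclk1 (0.00788), against 16.2% of all genes. Ptgs1 (adjusted p = 0.598) and Hpgds (0.463), the genes that rose, did not pass it, nor did Gfi1b (0.205) and Alox5ap (0.277).

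**Figure D1:**
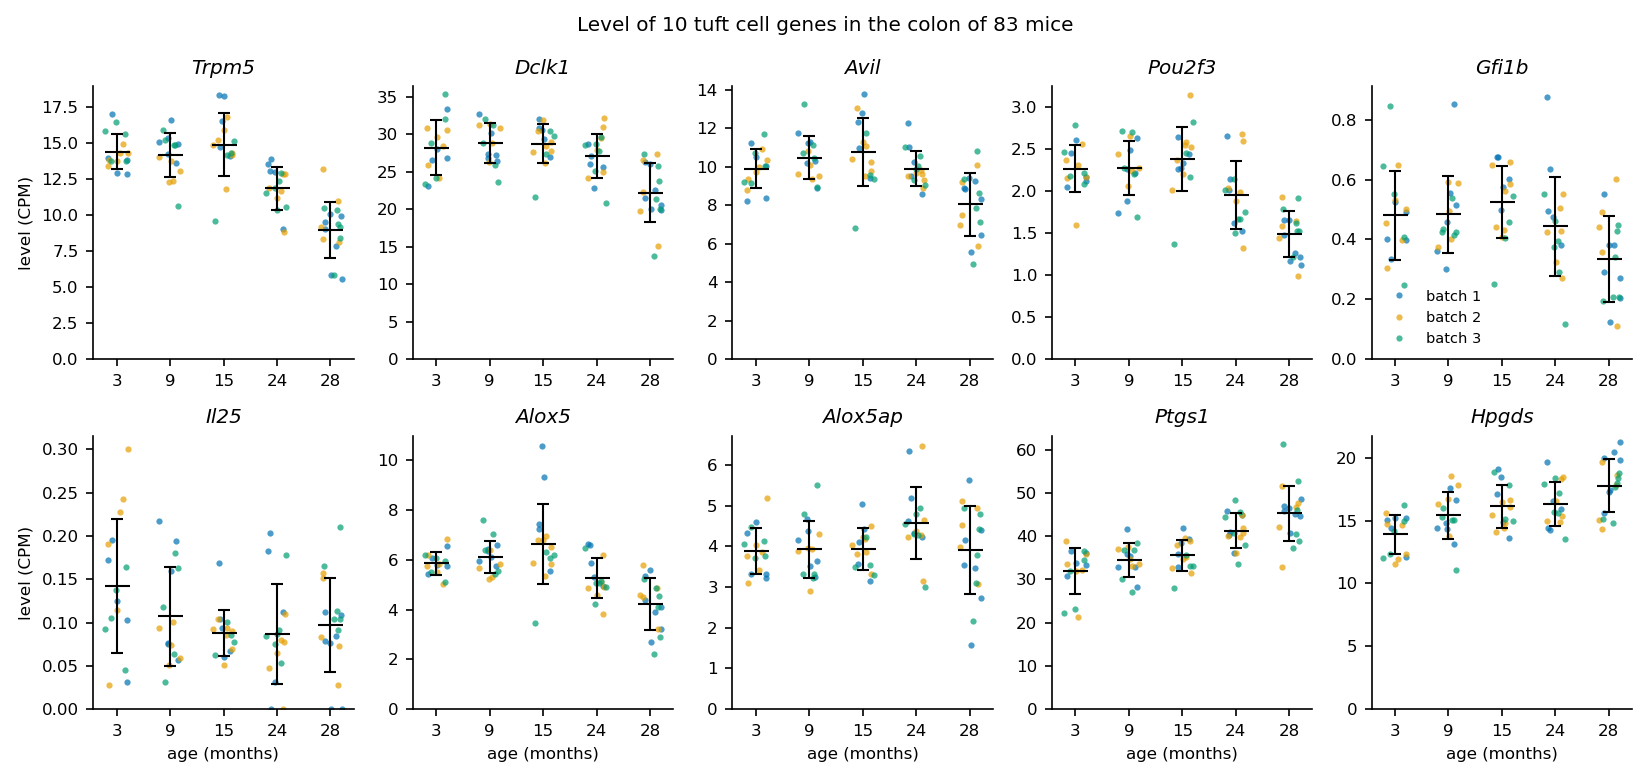
Level (CPM, linear axis from 0) of each of the 10 tuft cell genes against age in months. Each point is a mouse, coloured by library batch, and the black bars give the mean ± SD of 16 to 18 mice. The means of Trpm5, Pou2f3 and Alox5 are lower at 24 and 28 months than at each earlier age, while those of Ptgs1 are higher in the oldest mice and Il25 stays at or below 0.301 CPM in every mouse.

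Trpm5, the cation channel that depolarises tuft cells and taste cells (chr7:143069153-143094642, GRCm38), had the largest decrease of the 9 tested members. Its level was 12.8 to 17.0 CPM at 3 months (lowest and highest mouse, median 13.9), 10.6 to 16.6 at 9 months (median 14.5) and 9.57 to 18.3 at 15 months (median 14.8). It was 8.82 to 13.9 CPM at 24 months (median 11.9) and 5.58 to 13.2 at 28 months (median 9.16). All 17 mice of 24 months were below the median of the 15-month mice, and 17 of the 18 mice of 28 months were below every 3-month mouse. Trpm5 fell by 0.33 on the log2 scale between 15 and 24 months (SE 0.07, edgeR adjusted p = 0.00312) and again by 0.40 between 24 and 28 months (SE 0.07, adjusted p = 0.000207). With the goblet cell covariate these steps were -0.16 and -0.18 and did not pass (adjusted p = 0.150 and 0.367). At 28 months it stood at 0.623 times its level at 3 months (95% interval 0.562 to 0.690, adjusted p = 3.25e-12).

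The mouse 15 months replicate 16 was the lowest of its age for Trpm5 (9.57 CPM), Dclk1, Avil, Pou2f3, Gfi1b, Alox5 (3.45 CPM) and Ptgs1. Without it, the differences between 15 and 24 months were -0.37 for Trpm5 (SE 0.07, adjusted p = 0.000549), -0.33 for Pou2f3 (SE 0.08, adjusted p = 0.00757), -0.37 for Alox5 (SE 0.09, adjusted p = 0.00344) and 0.20 for Ptgs1 (SE 0.07, adjusted p = 0.0373), and the same 4 members passed. The members that did not pass were at -0.11 for Dclk1 (adjusted p = 0.290), -0.16 for Avil (0.131), -0.28 for Gfi1b (0.263), 0.21 for Alox5ap (0.179) and 0.04 for Hpgds (0.706).

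Dclk1 encodes a microtubule-associated kinase used to mark tuft cells, and it is also known from neurons (chr3:55242364-55539068). Its level ranged from 23.05 to 35.3 CPM at 3 months (median 28.2), from 23.7 to 32.6 at 9 months (median 28.8) and from 21.6 to 32.0 at 15 months (median 29.2). It ranged from 20.8 to 32.1 CPM at 24 months (median 27.8) and from 13.8 to 27.4 at 28 months (median 21.9). The younger ages overlapped broadly, and all 18 mice of 28 months were below the median of the 24-month mice. The difference between 15 and 24 months was -0.08 on the log2 scale (SE 0.06, adjusted p = 0.456). Between 24 and 28 months Dclk1 fell by 17.8% (log2 fold change -0.28, SE 0.06, adjusted p = 0.00229), a step that was -0.12 with the goblet cell covariate (adjusted p = 0.590).

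Avil encodes advillin, an actin-bundling protein of the apical tuft that sensory neurons also make (chr10:127000709-127020994). It was 8.20 to 11.7 CPM at 3 months (median 10.004), 8.89 to 13.2 at 9 months (median 10.4), 6.81 to 13.8 at 15 months (median 10.7), 8.57 to 12.3 at 24 months (median 9.68) and 4.95 to 10.8 at 28 months (median 8.48). The 28-month group reached lower than all others, with 9 of 18 mice below every 24-month mouse, although its upper mice overlapped each younger age. Avil fell by 18.8% between 24 and 28 months (log2 fold change -0.30, SE 0.07, adjusted p = 0.00407), after a difference of -0.12 between 15 and 24 months that did not pass the test (SE 0.07, adjusted p = 0.307). The later step was -0.09 with the goblet cell covariate (adjusted p = 0.758).

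Pou2f3, the transcription factor on which tuft cells depend (chr9:43123939-43210369), was a gene of low level. It had 1.60 to 2.78 CPM at 3 months (median 2.20), 1.69 to 2.72 at 9 months (median 2.27), 1.37 to 3.14 at 15 months (median 2.40), 1.32 to 2.68 at 24 months (median 1.99) and 0.985 to 1.93 at 28 months (median 1.53), and these levels rest on 27 to 146 read pairs per mouse. All 18 mice of 28 months were below the median at 24 months and below the median at 3 months. Pou2f3 fell by 18.0% between 15 and 24 months (log2 fold change -0.29, SE 0.09, adjusted p = 0.0282) and further between 24 and 28 months (log2 fold change -0.38, SE 0.09, adjusted p = 0.00271). Neither step passed with the goblet cell covariate (-0.14 and -0.16, adjusted p = 0.326 and 0.592). Over the span from 3 to 28 months it fell by 33.9% (adjusted p = 3.05e-08).

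Gfi1b, a transcriptional repressor of tuft cells that is best known from red cell and platelet precursors (chr2:28609450-28621982), was counted with 3 to 34 read pairs per mouse. Its median level over the 5 ages in turn was 0.472, 0.447, 0.553, 0.429 and 0.349 CPM, and the mice of each age spread widely, from 0.109 to 0.602 CPM at 28 months and from 0.247 to 0.844 at 3 months. Gfi1b was lower at 28 than at 3 months by 28.8% (log2 fold change -0.49, SE 0.16, adjusted p = 0.0118), with 15 of 18 mice of 28 months below the 3-month median. Neither of the late steps passed the test alone, with -0.23 between 15 and 24 months (SE 0.16, adjusted p = 0.395) and -0.38 between 24 and 28 months (SE 0.16, unadjusted p = 0.0225, adjusted p = 0.146).

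Il25, the cytokine that tuft cells release (chr14:54932695-54935837), had 322 read pairs over all 83 mice, 0 to 16 per mouse, and was too low for the filter. Its median count was 5 at 3 months and 3 at each later age, and 4 mice, 2 at 24 and 2 at 28 months, had 0 counts. A count of 3, the limit that a count of 0 allows, corresponds to 0.0395 CPM in the deepest and 0.127 CPM in the shallowest library, so most values were near that limit. In a fit without the filter, the difference from 3 to 28 months was -0.47 on the log2 scale (SE 0.27, adjusted p = 0.236). A change in Il25 was not detectable at this depth.

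Alox5, the 5-lipoxygenase that starts leukotriene synthesis (chr6:116410077-116461178), took a course like that of Trpm5 and Pou2f3. It was 5.03 to 6.85 CPM at 3 months (median 5.81), 5.23 to 7.58 at 9 months (median 6.03), 3.45 to 10.6 at 15 months (median 6.42), 3.83 to 6.63 at 24 months (median 5.08) and 2.23 to 5.80 at 28 months (median 4.44). The 15-month group held both the highest mice and a low one, and 14 of the 18 mice of 28 months were below every 3-month mouse. Alox5 fell by 20.1% between 15 and 24 months (log2 fold change -0.32, SE 0.09, adjusted p = 0.0161) and further between 24 and 28 months (log2 fold change -0.32, SE 0.09, adjusted p = 0.0147). With the goblet cell covariate, Alox5 differed by -0.07 and 0.02 in these steps (adjusted p = 0.642 and 0.971).

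Alox5ap, which encodes the protein FLAP that presents arachidonic acid to 5-lipoxygenase (chr5:149264767-149288153), did not pass the test in any step. Its median over the 5 ages in turn was 3.81, 3.91, 3.94, 4.38 and 4.06 CPM, and the 28-month mice spread from 1.58 to 5.64 CPM, where those of 24 months spread from 3.00 to 6.47 CPM. The log2 fold change was 0.22 between 15 and 24 months (SE 0.10, adjusted p = 0.154), -0.22 between 24 and 28 months (SE 0.10, adjusted p = 0.162) and 0.01 between 3 and 28 months (SE 0.10, adjusted p = 0.925). The 95% interval of the last reached from 0.880 to 1.16 times the level at 3 months, and the ratio measured for Alox5 over this span was 0.721 (95% interval 0.637 to 0.815).

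Ptgs1, cyclooxygenase 1, makes the precursor of all prostaglandins (chr2:36230426-36252272). It ranged from 21.2 to 38.9 CPM at 3 months (median 33.4), from 27.0 to 41.8 at 9 months (median 34.97), from 27.9 to 41.8 at 15 months (median 35.4), from 33.5 to 48.4 at 24 months (median 40.8) and from 32.8 to 61.2 at 28 months (median 46.0). Of the 18 mice of 28 months, 15 were above every 3-month mouse, and 16 of the 17 mice of 24 months were above the median at 15 months. Ptgs1 rose by 16.7% between 15 and 24 months (log2 fold change 0.22, SE 0.06, adjusted p = 0.0215), a step that did not pass with the macrophage covariate described further on (0.15, adjusted p = 0.115), and its level at 28 months was 1.41 times that at 3 months (95% interval 1.29 to 1.54, adjusted p = 1.08e-09). The difference between 24 and 28 months was 0.13 on the log2 scale (SE 0.06, adjusted p = 0.203).

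Hpgds, the hematopoietic prostaglandin D synthase (chr6:65117293-65144908), rose slowly over life. Its level was 11.6 to 16.3 CPM at 3 months (median 14.5), 11.1 to 18.6 at 9 months (median 15.2), 13.6 to 19.1 at 15 months (median 15.8), 13.5 to 19.7 at 24 months (median 16.0) and 14.4 to 21.2 at 28 months (median 17.9). Neighbouring ages overlapped, with 4 of the 18 mice of 28 months above every 24-month mouse, while 13 of the 18 mice of 28 months were above every 3-month mouse. No single step passed the test (the smallest adjusted p was 0.136, between 3 and 9 months, with a log2 fold change of 0.15 and SE 0.06), and the whole span from 3 to 28 months gave a level 1.28 times higher (95% interval 1.18 to 1.38, adjusted p = 6.79e-07).

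**Figure D2:**
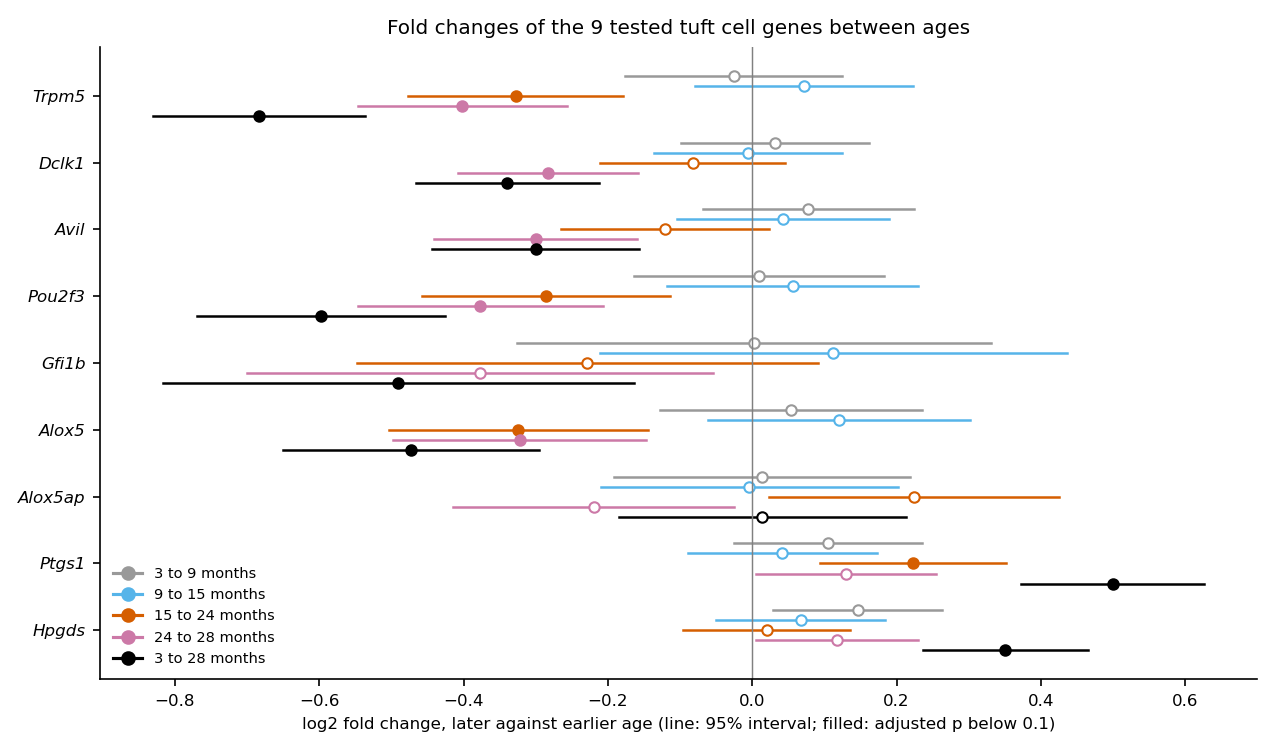
Log2 fold change (horizontal axis, later against earlier age) of the 9 tested genes, with 95% intervals and filled points where the adjusted p was below 0.1. The open grey and light blue points of 3 to 9 and 9 to 15 months lie around 0, and the black points of 3 to 28 months reach from -0.68 for Trpm5 to 0.50 for Ptgs1.

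Per transcript length (TPM, mean ± SD over the 83 mice), the order of the levels was Ptgs1 (29.7 ± 5.80), Avil (8.71 ± 1.37), Alox5ap (8.62 ± 1.66), Hpgds (7.55 ± 1.13), Trpm5 (6.02 ± 1.26), Dclk1 (5.33 ± 0.805), Alox5 (4.10 ± 0.841), Pou2f3 (2.01 ± 0.439), Gfi1b (0.744 ± 0.247) and Il25 (0.295 ± 0.168). Ptgs1 stood apart from the others, its lowest mouse (16.4 TPM) being above the highest of any other member (13.1 TPM, Alox5ap). The means of Avil and Alox5ap, of Alox5ap and Hpgds, and of Trpm5 and Dclk1 differed by less than an SD. Trpm5 moved in that order with age, from a mean TPM of 6.86 ± 0.577 at 3 months, above Hpgds (6.62 ± 0.900), to 4.34 ± 0.916 at 28 months, below Hpgds (8.61 ± 1.10).

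Within each of the 3 library batches, every member that passed the test between 15 and 24, 24 and 28, or 3 and 28 months had the same sign. The sizes varied. Trpm5 differed between 3 and 28 months by -0.74, -0.49 and -0.75 on the log2 scale in batches 1, 2 and 3, and Alox5 between 24 and 28 months by -0.47, -0.08 and -0.36. Ptgs1 differed between 3 and 28 months by 0.44, 0.46 and 0.64. Gfi1b was the least even, with -0.40, -0.19 and -0.78 over the same span.

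Markers of other cells moved with these genes. The 5 goblet cell genes (Muc2, Tff3, Clca1, Fcgbp and Agr2) were all lower at 28 than at 3 months (median log2 fold change -0.33), against 25.9% of all genes. Their summed level was 26751 to 37184 CPM at 3 months, 30883 to 41521 at 9 months, 18679 to 48862 at 15 months, 24604 to 39081 at 24 months and 21659 to 31866 at 28 months. None of these genes was at 0 in all or most mice. With the mean log2 CPM of the goblet cell list added to the fit as a covariate, an alternative chosen after the data were seen, fewer members passed. Between 15 and 24 months 0 members were lower (5.31% of all genes were) and 2, Alox5ap and Ptgs1, were higher (6.79% of all genes were). Between 24 and 28 months 0 of the 9 members passed, with 2 at an unadjusted p below 0.05, and the share of all genes called was 0.426%, 78 genes in place of 2139. Between 3 and 28 months Trpm5 (log2 fold change -0.44, SE 0.08, adjusted p = 5.45e-06), Pou2f3 (-0.37, SE 0.10, adjusted p = 0.00184) and Dclk1 (-0.16, SE 0.07, adjusted p = 0.0714) were still lower, where 18.1% of all genes were lower. Alox5 (-0.10, SE 0.08, adjusted p = 0.367), Avil (-0.07, SE 0.07, adjusted p = 0.538) and Gfi1b (-0.11, SE 0.19, adjusted p = 0.688) no longer passed. Ptgs1 (0.53), Hpgds (0.33) and Alox5ap (0.31) were higher in that fit, where 18.0% of all genes were higher.

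For Alox5, Avil and Gfi1b, the decrease with age and that of the goblet cell markers cannot be told apart in this fit. Of the general epithelial genes, 3 of 6 were lower between 3 and 28 months (25.9% of all genes were), with a median log2 fold change of -0.09. With the epithelial list as covariate the same 6 members were lower and the same 2 higher between 3 and 28 months, with Trpm5 at -0.61, Pou2f3 at -0.53 and Alox5 at -0.39. With the absorptive colonocyte list as covariate these were -0.66, -0.57 and -0.44. Genes of enteroendocrine cells (Chga, Chgb, Neurod1, Pyy, Insl5 and Scgn), a further secretory lineage, were lower too, 4 of 6 between 3 and 28 months and 0 higher (median log2 fold change -0.31). Their summed level was 316 to 575 CPM at 3 months (median 457) and 334 to 538 CPM at 28 months (median 453). None of these genes was at 0 in all or most mice, and their part in the result was not tested.

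Macrophage markers (Adgre1, Csf1r, C1qa, C1qb, C1qc, Cd68, Mrc1 and Cd163) were higher with age, 7 of 8 between 3 and 28 months (23.5% of all genes were), with a summed level of 168 to 261 CPM at 3 months and 163 to 386 CPM at 28 months and none at 0 in all or most mice. With these as covariate, Alox5ap turned from 0.01 to -0.33 between 3 and 28 months (SE 0.08, adjusted p = 0.000359), while Trpm5 (-0.76), Pou2f3 (-0.70) and Alox5 (-0.66) were lower than without it and Ptgs1 (0.38) and Hpgds (0.35) were still higher. The smooth muscle genes (Myh11, Acta2, Tagln, Des and Cnn1) did not pass between 3 and 28 months (0 of 5, median log2 fold change 0.13). As covariate they left Ptgs1 at 0.42 over this span, and Ptgs1 then also passed between 24 and 28 months (0.19). With the macrophage covariate, Alox5ap (-0.27, adjusted p = 0.00560) and Gfi1b (-0.41, adjusted p = 0.0928) were lower in that step too. Mast cells also make Hpgds, Alox5 and Alox5ap, and 5 of the 5 tested genes of the mast cell list (Cpa3, Cma1, Mcpt4, Mcpt1, Mcpt2, Tpsb2, Tpsab1, Fcer1a and Ms4a2) were higher at 28 than at 3 months, against the same 23.5% of all genes, with a summed level of 1.66 to 8.45 CPM at 3 months and 2.75 to 46.6 CPM at 28 months (Tpsab1 was at 0 in most mice). Their part in the rise of Hpgds was not tested.

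**Figure D3:**
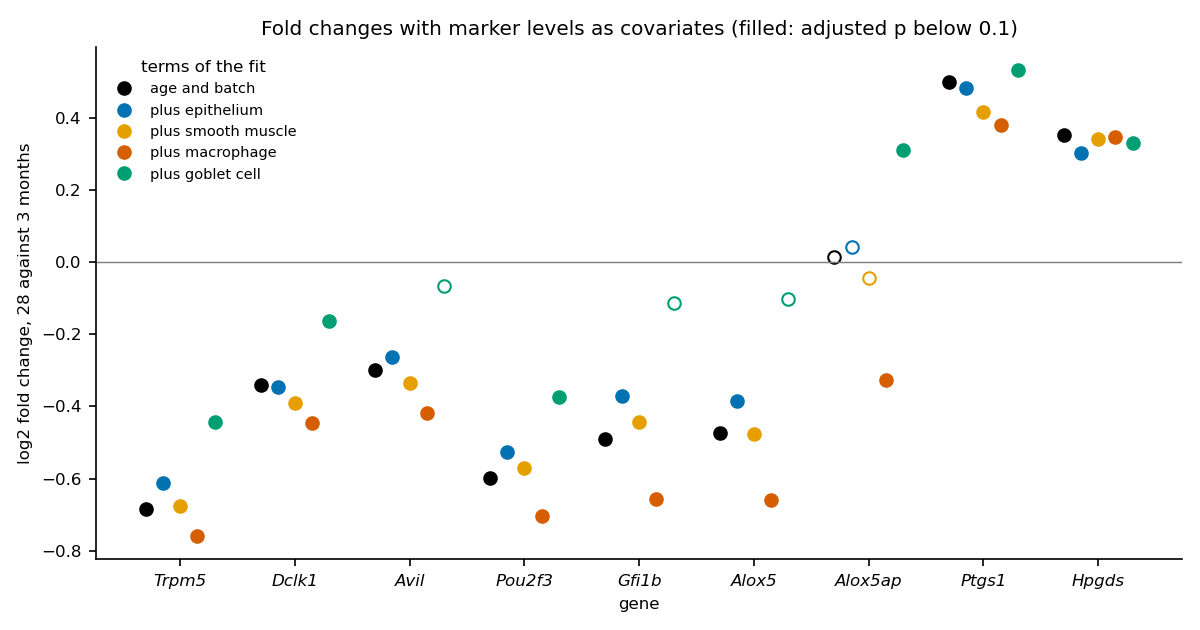
Log2 fold change between 3 and 28 months (vertical axis) of the 9 tested genes in the fit with age and batch and in fits with the mean log2 CPM of a marker list added, filled where the adjusted p was below 0.1. Trpm5, Pou2f3 and Dclk1 stay below 0 and filled in all 5 fits, whereas Alox5, Avil and Gfi1b are open with the goblet cell list and Alox5ap lies on both sides of 0.

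With the mice of all ages pooled and the differences between ages removed, the members that fell also varied together from mouse to mouse. Correlations were not computed for each age separately, so the pooled values do not show that the relation held at every age. After age and batch were fitted out of log2 CPM, the 15 pairs among the 6 genes that fell had a Pearson's r of 0.35 to 0.77 (median 0.51), and all 15 passed an adjusted p below 0.1 (two-sided permutation test, 100000 resamples, Benjamini-Hochberg adjustment over 36 pairs). Trpm5 and Alox5 were the closest pair (r = 0.77, Spearman's rho = 0.67, permutation p = 1e-05 for both, adjusted p = 2.77e-05 for r and 4.5e-05 for rho), with r = 0.73 without the 2 mice farthest from the median of Trpm5. The smallest p-value these permutations can give is 1e-05. Avil followed Alox5 (r = 0.73, rho = 0.60) and Trpm5 (r = 0.73, rho = 0.65), both with the same smallest p and r of 0.64 and 0.68 without 2 mice. The weakest of the 15 pairs was Dclk1 with Gfi1b (r = 0.35, rho = 0.23, permutation p = 0.00126 and 0.0321, adjusted p = 0.00227 and 0.0551), with r = 0.26 without 2 mice. These genes share each library, so depth and tissue composition enter every pair. With the goblet cell list fitted out as well, the 15 pairs had r of 0.20 to 0.64 (median 0.35) and 14 of them passed, and without 15 months replicate 16 they had r of 0.32 to 0.73 (median 0.47) and all 15 passed.

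Of the 18 pairs between these 6 genes and Ptgs1, Hpgds or Alox5ap, 9 passed. Alox5ap was correlated with each of the 6 by r, from 0.28 with Pou2f3 (rho = 0.19, permutation p = 0.012 and 0.0882, adjusted p = 0.0187 and 0.127) to 0.53 with Alox5 (rho = 0.40, permutation p = 1e-05 and 0.00021, adjusted p = 2.77e-05 and 0.000687), with r = 0.25 and 0.50 without 2 mice. Trpm5 and Ptgs1 had r = -0.05 (rho = -0.08, permutation p = 0.646 and 0.464, adjusted p = 0.775 and 0.576), and Trpm5 and Hpgds had r = -0.03 (rho = -0.05, permutation p = 0.783 and 0.661, adjusted p = 0.829 and 0.761). Dclk1 passed with both Ptgs1 (r = 0.34, rho = 0.29, permutation p = 0.00206 and 0.00806, adjusted p = 0.00353 and 0.0153, r = 0.36 without 2 mice) and Hpgds (r = 0.21, rho = 0.23, permutation p = 0.0541 and 0.0394, adjusted p = 0.0779 and 0.0619, r = 0.20 without 2 mice), and Avil passed with Ptgs1 (r = 0.24, rho = 0.23, permutation p = 0.0301 and 0.0396, adjusted p = 0.0452 and 0.0619, r = 0.26 without 2 mice). No pair of members had a negative r past the threshold.

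**Figure D4:**
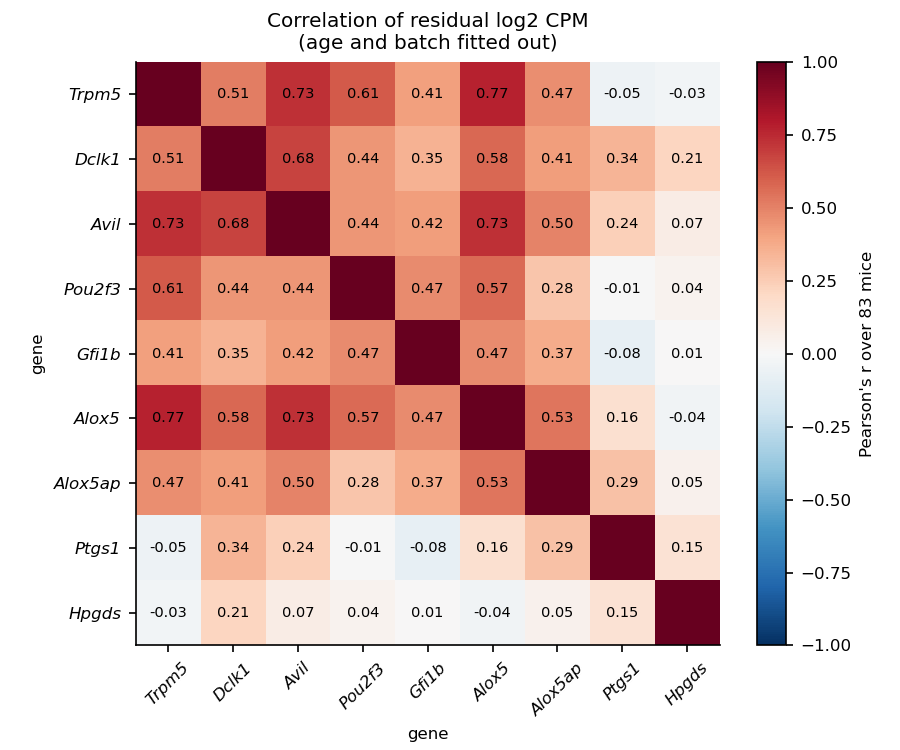
Pearson's r over the 83 mice between the residual log2 CPM (age and batch fitted out) of each pair of the 9 tested genes, written in each square. The block of the first 6 genes runs from 0.35 to 0.77, and the squares of Ptgs1 and Hpgds against Trpm5, Pou2f3 and Gfi1b lie between -0.08 and 0.04, while that of Dclk1 and Ptgs1 is at 0.34.

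The same residuals were set against the mean log2 CPM of 14 marker lists, and 54 of the 126 relations passed an adjusted p below 0.1. Each of the 6 genes that fell was correlated with the goblet cell list, with Alox5 highest (r = 0.69, rho = 0.66, permutation p = 1e-05 for both, adjusted p = 9.69e-05 and 0.000115, r = 0.66 without 2 mice) and Gfi1b lowest (r = 0.42, rho = 0.40, permutation p = 0.00012 and 0.00023, adjusted p = 0.00084 and 0.00153, r = 0.36 without 2 mice). Alox5ap was closest to the macrophage list (r = 0.75, rho = 0.74, permutation p = 1e-05 for both, adjusted p = 9.69e-05 and 0.000115, r = 0.74 without 2 mice). Ptgs1 was closest to smooth muscle (r = 0.75, rho = 0.67, with the same p-values, r = 0.71 without 2 mice). By r, all 6 also passed with the fibroblast list (0.24 for Gfi1b to 0.57 for Dclk1) and the macrophage list (0.26 for Trpm5 to 0.49 for Alox5), whereas by rho 3 of the 6 (Dclk1, Alox5 and Avil) passed with each. Dclk1 had the highest values with genes of fibroblasts (r = 0.57, rho = 0.50, permutation p = 1e-05 and 3e-05, adjusted p = 9.69e-05 and 0.000236, r = 0.52 without 2 mice) and of enteric neurons (r = 0.55, rho = 0.53, permutation p = 1e-05 for both, adjusted p = 9.69e-05 and 0.000115, r = 0.55 without 2 mice). Between 24 and 28 months, 2 of 6 fibroblast genes were lower and 0 higher (median log2 fold change -0.17), where 6.01% of all genes were lower. Of the 7 enteric neuron genes 0 passed in that step (median -0.15). The part of either list in the fall of Dclk1 was not tested. Hpgds had no positive relation past the threshold with any list, its relation with the mast cell list being r = 0.09 (rho = 0.11, permutation p = 0.444 and 0.319, adjusted p = 0.608 and 0.485, r = 0.14 without 2 mice), and its lowest value was with the epithelial genes (r = -0.37, rho = -0.41, permutation p = 0.00039 and 0.0002, adjusted p = 0.00214 and 0.0014, r = -0.37 without 2 mice).

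The genes most like the members in these residuals, among 14962 tested genes of at least 1 CPM on average (83 mice), are given as a description. Those nearest to Trpm5 were Alox5, Avil and Sh2d6 (r = 0.77, 0.73 and 0.69), the last from the list of other tuft cell markers, and those nearest to Avil were Alox5, Trpm5 and Dclk1 (r = 0.73, 0.73 and 0.68). Alox5 was nearest to Trpm5, Avil and Ang4, an angiogenin of secretory cells (r = 0.77, 0.73 and 0.72). Pou2f3 was nearest to Trpm5, Hrh1 and Rgs3 (r = 0.61, 0.60 and 0.57). Alox5ap was nearest to Tyrobp, Emp3 and Fcer1g (r = 0.81, 0.81 and 0.79), of which Tyrobp and Fcer1g are adaptors of myeloid receptors. Ptgs1 was nearest to Mxra8, Flna and Art3 (r = 0.82, 0.81 and 0.81), and Flna encodes an actin crosslinker abundant in muscle. Hpgds (Zfp945, Armcx5 and Hp1bp3, r = 0.62, 0.59 and 0.59) and Gfi1b (Pik3r5, Il4ra and Smap2, r = 0.56, 0.54 and 0.53) had no member among their nearest genes.

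Further genes of the tuft cell were tested with TMM scaling alone, and between 3 and 28 months their counts stand against 25.9% of all genes lower and 23.5% higher. Of 8 tested genes of the taste-type signalling chain, 4 were lower and 0 higher between 3 and 28 months (median log2 fold change -0.24, against -0.01 over all genes tested). Rgs13, a regulator of G protein signalling, fell by 0.43 between 15 and 24 months and by 0.44 between 24 and 28 months (SE 0.10 each, adjusted p = 0.00284 and 0.00196), and Gnat3, the taste G protein gustducin, rose by 0.42 between 3 and 9 months (SE 0.12, adjusted p = 0.0243) before it fell by 0.37 and 0.41 in the same late steps (adjusted p = 0.0365 and 0.0181). Plcb2, the phospholipase of the chain, fell by 0.25 between 24 and 28 months (SE 0.07, adjusted p = 0.0214). Gnb3, a G protein subunit, rose between 15 and 24 months (0.89, SE 0.28, adjusted p = 0.0365) and fell between 24 and 28 months (-1.06, SE 0.28, adjusted p = 0.0107).

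Of 7 transcription genes of the tuft cell, 4 were lower and 0 higher between 3 and 28 months (median -0.30, against 25.9% and 23.5% of all genes). They were Spib (-0.83, SE 0.13, adjusted p = 2.32e-07), which B cells also use, Hmx3 (-0.81, SE 0.13, adjusted p = 6.83e-07), Hmx2 (-0.54, SE 0.14, adjusted p = 0.00134) and Pou2af2, the coactivator of POU2F3 (-0.30, SE 0.11, adjusted p = 0.0284). Of these, Spib, Hmx3 and Pou2af2 were also lower between 24 and 28 months (6.01% of all genes were). The B cell genes Cd79b, Ms4a1 and Cr2 were lower in both of these comparisons, with log2 fold changes of -0.55, -1.31 and -3.06 between 3 and 28 months (adjusted p = 0.0401, 0.00216 and 9.78e-08), and Cd79a was lower between 24 and 28 months (-0.58, adjusted p = 0.0966). Their part in the change of Spib was not tested. Of 17 other tuft cell markers, 11 were lower and 2 higher between 3 and 28 months (median -0.31, against the same shares of all genes). Siglecf, a sialic acid-binding receptor also found on eosinophils, fell by 0.78 over this span (SE 0.10, adjusted p = 1.11e-09), Sh2d7 by 0.56 (SE 0.07, adjusted p = 1.27e-09) and Sh2d6 by 0.39 (SE 0.08, adjusted p = 2.23e-05). Krt23, a keratin, went the other way and rose by 0.86 (SE 0.09, adjusted p = 2.92e-13).

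Of 9 tested partners of the eicosanoid enzymes, 4 were higher and 2 lower between 3 and 28 months (median -0.06), and the share that was lower was near that of all genes (25.9% lower, 23.5% higher). Cysltr2, a receptor for cysteinyl leukotrienes, rose by 0.55 (SE 0.09, adjusted p = 1.69e-06), Tbxas1, the thromboxane synthase, by 0.51 (SE 0.10, adjusted p = 1.85e-05) and Ptges, a prostaglandin E synthase, by 0.39 (SE 0.09, adjusted p = 0.000242). Lta4h, which makes leukotriene B4, fell by 0.19 (SE 0.03, adjusted p = 2.29e-06). Of 10 tested genes of the type 2 circuit, 2 were higher and 2 lower (median -0.03), shares near those of all genes. Gata3, the transcription factor of type 2 lymphocytes, rose by 1.08 (SE 0.13, adjusted p = 1.16e-10) and Il33, an alarmin, by 0.48 (SE 0.11, adjusted p = 0.000458), while Il13ra1, a receptor chain for interleukin 13, fell by 0.15 (SE 0.04, adjusted p = 0.00116). Il17rb, the receptor chain for interleukin 25, fell by 0.38 between 24 and 28 months (SE 0.11, adjusted p = 0.0206), and its difference between 3 and 28 months was 0.14 (SE 0.11, adjusted p = 0.329). Il4 and Il13 did not pass the filter on low counts.

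**Figure D5:**
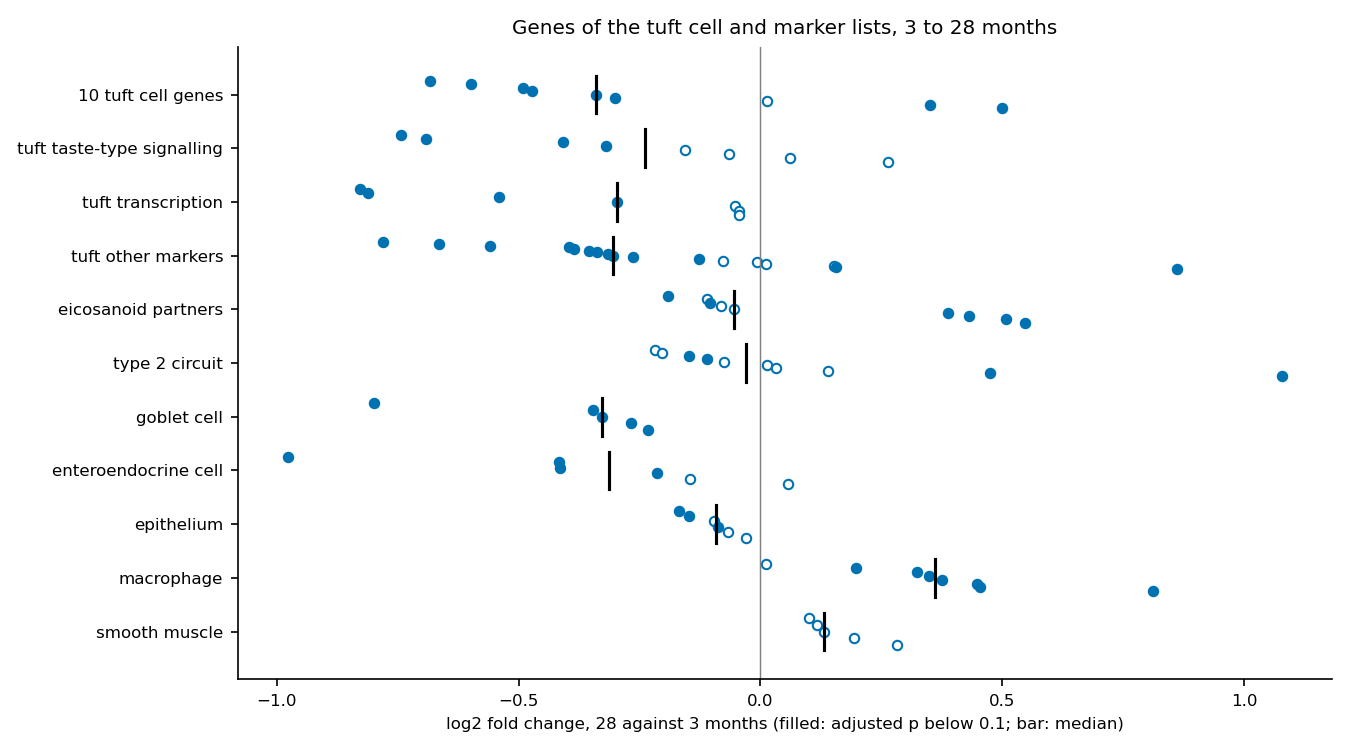
Log2 fold change between 3 and 28 months (horizontal axis) of the 9 tested members and of the genes of 10 further lists, filled where the adjusted p was below 0.1, with the median of each list as a black bar. The medians of the tuft cell lists lie between -0.34 and -0.24 and those of the goblet and enteroendocrine cell lists at -0.33 and -0.31, while that of the epithelial list is at -0.09 and that of the macrophage list at 0.36.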

How the data were processed

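Colon RNA-seq of 83 mice was analysed. Per the methods of the study, the authors prepared strand-specific polyA libraries, used cutadapt for trimming and HISAT2 for alignment to GRCm38, and took stranded read pair counts per gene from uniquely mapped reads with featureCounts (Subread). The deposited values are whole counts of 1 mouse each, without normalization. Tool versions in the submitters' processing notes were cutadapt 2.8, HISAT2 2.1.0, SAMtools 1.9 and Subread 2.0.1.

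Each mouse was placed in its age group by its label, and no mouse was left out. Symbols, positions and exon lengths came from a GRCm38 annotation in which 37652 of the 37764 genes were found. Counts were filtered by filterByExpr (18325 genes kept), scaled by TMM and fitted in edgeR 4.0.16 (R 4.3.3) with age group and library batch. Quasi-likelihood F-tests gave p-values, adjusted by Benjamini-Hochberg over all genes tested, with a threshold of 0.1. Alternatives were DESeq2 1.42.0, other scalings, filters and covariates, a replicate block and leaving out mice. Residual log2 CPM (prior count 2) entered the correlations. The script was tested on simulated data.

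Named genes were all 10 members, the 4 genes with the smallest p over the 5 ages in each tuft cell, eicosanoid or type 2 list, and the 3 genes most correlated with each member. Those of Dclk1 and the whole B cell list are not reported here. Genes of the lists used as covariates, and of the mast and enteroendocrine cell lists, are named in the text. Il13 and Il4 were named as untested. Members and lists were chosen with earlier results of these data known. Averaged over genes above a count floor, the difference between mice was larger than counting noise in all 649 pairs of the same age. That average was not made for single members. The depth of 23026370 to 75838290 read pairs limits precision for Il25 and Gfi1b. Exons of Dclk1, Trpm5, Alox5ap, Ptgs1 and Avil overlap genes of the opposite strand, which the stranded counting separates.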

Additional observations from a re-analysis of the deposited data

How the results depend on the processing

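Counts of members or member pairs past the threshold equalled the main count or were within 1.5 times it in 76 of 78 recomputations. By this rule 0 against 0 counted as equal, and direction was not compared. Between 3 and 28 months with the goblet cell covariate, 3 members were lower and 3 higher, in place of 6 and 2, which the rule let pass. With the goblet cell list as covariate, added after the data were seen, the count was 2 in place of 4 between 15 and 24 months and 0 in place of 5 between 24 and 28 months (where 0.426% of all genes were called, 78 in place of 2139), and Alox5 turned to 0.0182 between 24 and 28 months (adjusted p = 0.971). With the macrophage list as covariate, Alox5ap turned to -0.33 between 3 and 28 months. Leaving out each mouse in turn gave 0 to 1 members between 3 and 9 months (1 without 3 months replicate 3 or 9 or without 9 months replicate 10, each time Hpgds), 4 to 5 between 15 and 24 months, 5 to 6 between 24 and 28 months, 8 between 3 and 28 months and 8 to 9 over the 5 ages. Replicate numbers did not pair the mice (median r of same-numbered mice 0.01 over 161 pairs, with 27 above 0.1). With the replicate number as a block (replicate block), 6 members passed between 24 and 28 months, the added one being Gfi1b (-0.46, adjusted p = 0.0888), and 8 between 3 and 28 months. Of 668 values of single members under alternatives, 646 kept their side of the threshold, 11 lost the call, 9 gained it and 2 reversed. Of these, Ptgs1 between 15 and 24 months lost the call with the macrophage list (0.15, adjusted p = 0.115). A change of sign in a member that passed in neither fit counted as kept. Avil between 15 and 24 months, for example, was at -0.12 in the main fit and at 0.05 with the goblet cell list. With at least 10 counts in every mouse Gfi1b could not be tested. Why these values moved was not tested. Low counts limit the precision for Il25 (0 to 16 per mouse) and Gfi1b (3 to 34 per mouse).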
